A study of Mus musculus with 2 samples.

Results

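The genes described here are the mouse fibroblast growth factors (FGFs), their receptors and the Sprouty and Spred genes, which encode inhibitors of receptor signalling. Membership was decided by gene symbol alone: every protein-coding gene named Fgf, Fgfr, Spry or Spred with a number, together with Fgfrl1, in both deposited gene tables. This gave 33 members of 21474 protein-coding genes, namely 22 FGF genes, 5 receptor genes, 3 Sprouty genes and 3 Spred genes. Of the 22 FGF genes, 18 encode secreted ligands and 4 encode FGF homologous factors, which are not secreted. Their expression was read from polyadenylated RNA of whole lung from 1 adult female C57BL/6J mouse aged 10 weeks, with no treatment or altered allele named in the labels. The tissue was sequenced in 2 libraries, which the labels call technical replicates 1 and 2 of 1 biological replicate, and replicate 2 was made later. Both libraries form a single group, so no conditions are compared. An SD therefore describes how far the 2 libraries (n = 2) lay apart and says nothing of other animals. Whether both came from 1 RNA extraction is not stated.

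FGFs are signalling proteins that bind receptor tyrosine kinases on the cell surface together with heparan sulfate, a sugar chain of the extracellular matrix. The activated receptor recruits adaptor proteins and turns on the Ras and MAP kinase cascade, and Sprouty and Spred proteins are feedback inhibitors of that cascade. In the lung, the mesenchymal ligand FGF10 acts on the epithelial form of FGFR2 and is needed for the airways to branch in the embryo, while FGF7, also called keratinocyte growth factor, is a growth factor for alveolar type 2 cells. Ligand preference of the receptors FGFR1 to FGFR3 depends on splicing. The C-terminal part of the third immunoglobulin domain is encoded by either of 2 mutually exclusive exons, and the form with the first exon, IIIb, is typical of epithelium, whereas the form with the next, IIIc, is typical of mesenchyme.

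The alternative exons of Fgfr3 are shown because the receptor results below depend on which exon of such a pair a transcript was assigned. They are given 5′ to 3′ on the strand of the gene, from the GENCODE M21 transcripts on GRCm38, and capitals mark the longest stretch shared by both exons.
Fgfr3 IIIb exon, chr5:33731281-33731431, plus strand: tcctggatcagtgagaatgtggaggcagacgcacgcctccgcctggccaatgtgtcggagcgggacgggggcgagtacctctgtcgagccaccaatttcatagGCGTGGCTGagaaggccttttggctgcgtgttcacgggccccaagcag
Fgfr3 IIIc exon, chr5:33732117-33732261, plus strand: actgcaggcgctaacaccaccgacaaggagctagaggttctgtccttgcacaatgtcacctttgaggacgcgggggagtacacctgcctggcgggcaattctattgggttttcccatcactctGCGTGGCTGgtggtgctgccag
In a global alignment these exons were identical at 52.4% of aligned positions, and the longest shared stretch was 9 bases. A read lying within one of them therefore differs from the other at many positions.

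The deposited tables held 16104442 expected counts in replicate 1 and 17110882 in replicate 2, an expected count being the authors' estimate of the reads of a gene. Levels are given in TPM, transcripts per 1000000 transcripts, which allows for the length of each gene, and a gene was called detected at a TPM of at least 1. Of 26 marker genes of lung cell types, 24 were detected in both libraries and the ciliated cell gene Foxj1 and the endothelial gene Cldn5 in replicate 2 only. Of the 26, 17 were over 2-fold higher in replicate 2, 3 lower (Lamp3, Nkx2-1 and Pdgfra) and 6 within. Of all genes whose TPM averaged 1 or more, 39.3% were over 2-fold higher and 28.2% lower. Direction went with GC content, as described below. The median GC content was 54.0% for the 26 markers and 50.4% for all those genes. After the GC trend of all genes was subtracted, 14 of the 26 were still over 2-fold higher and 6 over 2-fold lower. Their median was then 1.45 on the log2 scale, and 43.1% of all genes were over 2-fold from the trend on either side. The summed TPM of the markers was 28185 in replicate 1 and 237980 in replicate 2, most of it from the club cell gene Scgb1a1 at 17498 and 174257 TPM. Markers of 6 other tissues were read in the same way. All 6 heart muscle markers were over 2-fold higher in replicate 2, with sums of 109.6 and 1191 TPM. The median GC content of these 6 was 55.0%, and 5 of the 6 lay over 2-fold above the GC trend and 0 over 2-fold below it. The sums were 106 and 798 TPM for 3 adipose markers, where Cfd went from 6.37 to 696 TPM and Adipoq was at 99.96 and 90.1 TPM. They were 17.6 and 84.9 TPM for 3 mesothelial markers, of which Wt1 was lower in replicate 2, at 8.71 and 2.52 TPM, and 0 and 22.2 TPM for 2 skeletal muscle markers. The 2 thymus markers summed to 0.04 TPM in replicate 1 and to 0 in replicate 2, with Ptcra at 0 counts in both, and the 2 liver markers to 1.44 and 1.91 TPM, with Ttr at 0 counts in both. What part these tissues have in the levels of the members was not tested. In whole tissue a gene at a lower level may be made by fewer cells or at less RNA per cell, and these cannot be told apart.

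The adult lung expressed a small part of the FGF ligand family and most of the receptor and inhibitor genes. Of 33 members, 13 were detected in both libraries, 3 in replicate 1 only and 2 in replicate 2 only, against 49.9%, 2.33% and 10.7% of all protein-coding genes. The other 15 stayed below a TPM of 1 in both libraries, with 0.74 TPM as their highest value. Of these, 8 had 0 counts in both libraries, a state shared by 22.7% of protein-coding genes. All members together made up 543 TPM in replicate 1 and 343 in replicate 2. Fgfr2 as counted stood first in both libraries, at 116 and 67.1 TPM, but most of this belongs to a transcript described below. That transcript shares 314 of its 2425 bases with another gene and 2111 with other Fgfr2 transcripts. Without it Fgfr2 was at 15.0 and 26.2 TPM, below Fgf1 and Spry1 in both libraries. These lower values also leave out any Fgfr2 reads that were assigned to that transcript. Fgf1, at 100.1 and 57.3 TPM, and Spry1, at 84.7 and 59.1 TPM, took the next places, with Fgf1 ahead of Spry1 in replicate 1 and behind it in replicate 2. The ranges of Fgfr2 and Fgf1 over the libraries overlapped, while within a library Fgfr2 as counted was 1.16-fold and 1.17-fold above Fgf1.

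**Figure D1:**
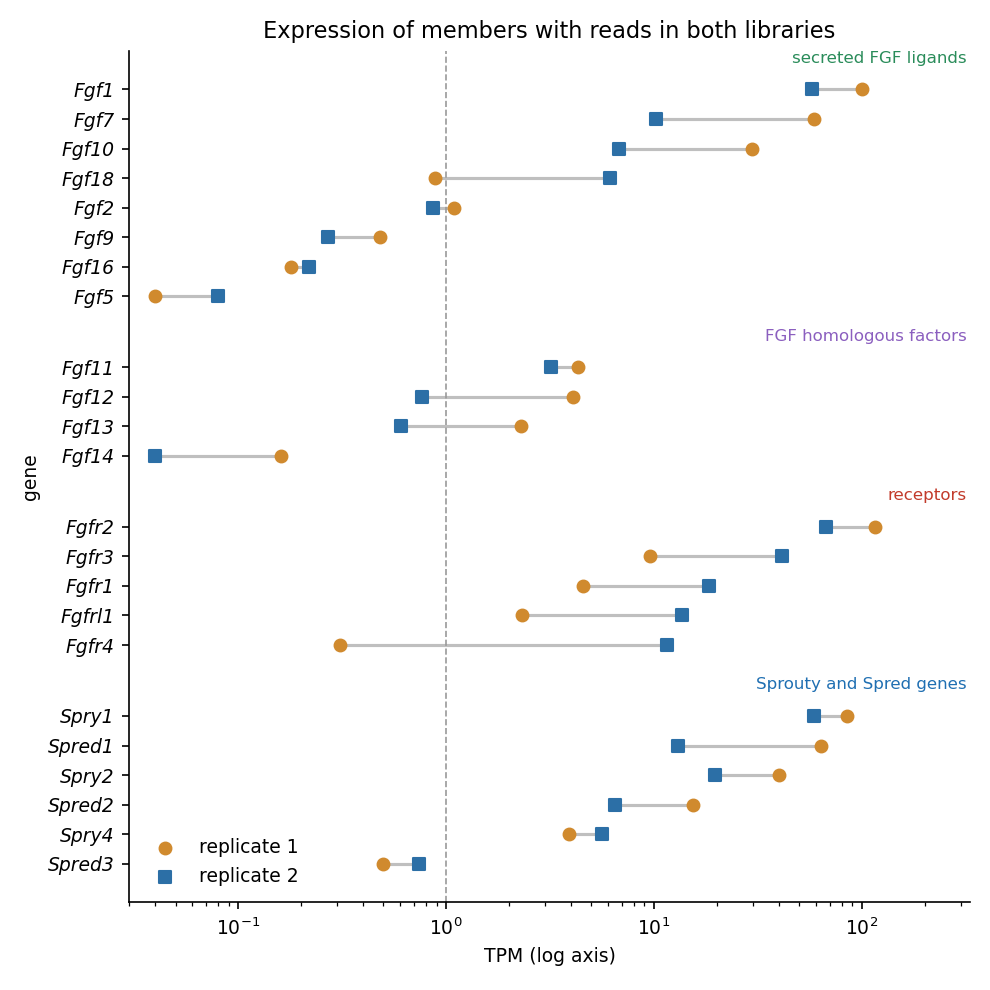
TPM (log axis) of the 23 members with at least 1 count in both libraries, by role, with replicate 1 as circles, replicate 2 as squares and a dashed line at a TPM of 1. Ligands and Spred genes above that line lie mostly to the left in replicate 2, while Fgfr1, Fgfr3, Fgfr4 and Fgfrl1 lie to the right.

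Among the 18 secreted ligands, 3 were detected in both libraries: Fgf1, Fgf7 and Fgf10. Together the secreted ligands came to 191 TPM in replicate 1 and 82.0 in replicate 2, averaging 137 ± 77.2 TPM (SD, n = 2). Fgf1 encodes acidic FGF, a ligand that can bind every FGF receptor. Its 4253 and 3373 counts gave 100.1 and 57.3 TPM, or 78.7 ± 30.3 TPM (SD, n = 2), which placed it 1210th and 1852nd among protein-coding genes. Scaled counts of Fgf1 were 1.61-fold higher in replicate 1, with an exact 95% counting interval of 1.53 to 1.68. Replicate 1 was thus above replicate 2 by more than counting error.

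Fgf7 (chr2:126034658-126091185, plus strand) and Fgf10 (chr13:118669791-118792115, plus strand) encode the mesenchymal ligands that signal to epithelium through FGFR2-IIIb. Fgf7 had 1425 and 358 counts, or 58.7 and 10.2 TPM, with a mean of 34.5 ± 34.2 TPM (SD, n = 2). Scaled counts of Fgf7 were 5.07-fold higher in replicate 1 (exact 95% counting interval 4.51 to 5.71). Fgf10 had 1308 and 421 counts, or 29.7 and 6.79 TPM, with a mean of 18.3 ± 16.2 TPM (SD, n = 2). Its scaled counts were 3.96-fold higher in replicate 1 (3.55 to 4.43). Both genes therefore lay in the same direction, and within a library their proportion was steadier than either level: Fgf7 exceeded Fgf10 by 1.97-fold in replicate 1 and 1.51-fold in replicate 2. Fgf1 was 1.71-fold above Fgf7 in replicate 1 and 5.60-fold above it in replicate 2.

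Fgf18 (chr11:33117430-33147400, minus strand), a ligand of the FGF8 subfamily, went the other way. It had 8 counts and 0.88 TPM in replicate 1 and 83 counts and 6.14 TPM in replicate 2, with a mean of 3.51 ± 3.72 TPM (SD, n = 2). In scaled counts this is 8.14-fold higher in replicate 2, and with 8 counts on one side the interval is wide, from 3.95 to 19.5. Fgf2, which encodes basic FGF, had only 7 and 10 counts, for 1.09 and 0.87 TPM, and lay at the detection threshold. The authors' posterior mean put Fgf2 above it, at 3.35 and 2.47 TPM. Fgf1 exceeded Fgf2 by 91.8-fold in replicate 1 and 65.9-fold in replicate 2 on the TPM scale, and by the posterior mean Fgf1 stood at 94.99 and 55.8 TPM. The end of Fgf2 overlaps 585 exonic bases of Nudt6 on the opposite strand, itself at 0.6 and 4.94 TPM. Whether the counting used strand is not stated, so reads of Fgf2 and Nudt6 cannot be told apart there.

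The remaining 13 secreted ligands did not reach a TPM of 1 in either library. Fgf3, Fgf4, Fgf6, Fgf8, Fgf15, Fgf20, Fgf22 and Fgf23 had 0 counts in both. A count of 0 allows up to 3 counts, which is 0.186 counts per 1000000 counts (CPM) in replicate 1 and 0.175 CPM in replicate 2 and covers counting error only. Fgf9, a ligand of embryonic lung mesothelium and epithelium, had 10 counts in each library, for 0.48 and 0.27 TPM. Fgf16 had 3 and 5 counts, Fgf5 1 and 3 counts, and Fgf17 and Fgf21 0 counts in replicate 1 and 1 count in replicate 2. The endocrine ligands Fgf15, Fgf21 and Fgf23, which act as hormones, thus had 1 count between them in both libraries. Several silent ligands lie together: Fgf4 and Fgf3 are 2.93 kb apart on chromosome 7 with Fgf15 31.3 kb beyond Fgf4, and Fgf6 and Fgf23 are 44.7 kb apart on chromosome 6. Members with counts lay farther apart: Fgf2 and Spry1 are 230 kb apart on chromosome 3, and Fgf1 and Spry4 lie 237 kb apart on one chromosome and strand.

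The FGF homologous factors Fgf11, Fgf12, Fgf13 and Fgf14 encode intracellular proteins that are not secreted and bind voltage-gated sodium channels. Their sum was 10.8 TPM in replicate 1 and 4.63 in replicate 2. Fgf11 was the highest, with 113 and 136 counts and 4.29 and 3.21 TPM, a mean of 3.75 ± 0.764 TPM (SD, n = 2). Its counting interval for the ratio of replicate 2 over replicate 1, 0.731 to 1.22, included equality. Fgf12 had 132 and 35 counts, for 4.09 and 0.77 TPM, and was 4.81-fold higher in replicate 1 (exact 95% counting interval 3.29 to 7.19). Fgf13 had 49 and 21 counts, for 2.29 and 0.61 TPM, and was 2.97-fold higher in replicate 1 (1.75 to 5.22). The level of Fgf13 depended on the authors' estimate: their posterior mean gave 11.7 and 6.99 TPM, of which 72.4% and 78.7% fell on a noncoding transcript of 151 bases, Fgf13-204, that the usual estimate left at 0 counts. Fgf14 had 6 and 2 counts and stayed at or below 0.16 TPM.

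The 5 receptor genes were all detected in at least 1 library. Unlike the sums of secreted ligands, homologous factors, Sprouty genes and Spred genes, theirs was higher in replicate 2. It was 133 TPM in replicate 1 and 152 in replicate 2, averaging 142.5 ± 13.6 TPM (SD, n = 2), but Fgfr2 made up most of the first sum. Of these sums, 101.1 and 40.9 TPM were in an Fgfr2 transcript described below, whose assignment is uncertain. The SD joins Fgfr2, lower in replicate 2 as counted, with 4 other receptors that were higher there. Fgfr2 (chr7:130162451-133123350, minus strand) had 2633 and 2402 counts, for 116 and 67.1 TPM, a mean of 91.6 ± 34.6 TPM (SD, n = 2). Its scaled counts were 1.40-fold higher in replicate 1 (exact 95% counting interval 1.32 to 1.48). As counted, replicate 1 was the higher library for Fgfr2, as it was for Fgf1 and Fgf7.

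Fgfr3 (chr5:33721674-33737068, plus strand) had 411 and 2435 counts, for 9.57 and 41.4 TPM. It was 4.65-fold higher in replicate 2 (4.19 to 5.17). Fgfr1 (chr8:25513654-25575718, plus strand), the main receptor of mesenchyme, had 224 and 973 counts, for 4.56 and 18.4 TPM, and was 3.41-fold higher in replicate 2 (2.94 to 3.96). For both genes the libraries stood apart by far more than counting error, and replicate 2 was the high one. As counted, the first 3 receptors were Fgfr2, Fgfr3 and Fgfr1 in both libraries, an order that rests on the transcript described below. Its steps differed: Fgfr2 exceeded Fgfr3 by 12.1-fold in replicate 1 and by 1.62-fold in replicate 2.

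Fgfr4 (chr13:55152640-55168759, plus strand), the remaining receptor with a tyrosine kinase, had 6 counts and 0.31 TPM in replicate 1 and 560 counts and 11.6 TPM in replicate 2. This was the widest gap of any tested member, 73.2-fold in scaled counts with an interval of 33.4 to 200.4. On the TPM scale the gap was 37.3-fold, and there 51.8% of the TPM in replicate 1 was assigned to a retained-intron transcript of 590 bases, Fgfr4-202, which held 0.74 counts. The authors' posterior mean gave Fgfr4 0.84 and 11.5 TPM, a log2 ratio of 3.63 against 6.09 from scaled counts. Fgfrl1 (chr5:108692382-108706924, plus strand) encodes a receptor-like protein that binds ligand but has no kinase domain. It had 57 and 521 counts, for 2.31 and 13.6 TPM, and was 7.17-fold higher in replicate 2 (5.45 to 9.60). Replicate 1 alone would have placed Fgfr4 below detection, and replicate 2 placed it at 6772nd of protein-coding genes.

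Most of what was counted as Fgfr2 belonged to a transcript that holds neither the IIIb nor the IIIc exon. Fgfr2-217, of 7 exons and 2425 bases with 546 coding bases, was assigned 87.0% of Fgfr2 in replicate 1 and 60.9% in replicate 2, or 101.1 and 40.9 TPM. In the annotation 2111 of its bases are shared with other Fgfr2 transcripts. Its first 2 exons, chr7:133123141-133123350 and chr7:133081757-133081860, make up the other 314 bases and coincide with exons of Ctbp2, another gene on the same strand, which encodes a transcriptional corepressor. They are joined to the rest by an intron of 2.91 Mb. Ctbp2 itself had 19.9 and 21.03 TPM. The level of Fgfr2 is uncertain for this reason. Outside Fgfr2-217 it was 15.0 TPM in replicate 1 and 26.2 TPM in replicate 2, the opposite order of libraries. This lower value leaves out every read assigned to Fgfr2-217, including any from the bases shared with other Fgfr2 transcripts. In replicate 1 that value is still the highest of the receptors, and in replicate 2 it lies below the 41.4 TPM of Fgfr3.

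The IIIb and IIIc shares of the receptors differed widely between libraries. They rest on the authors' assignment of reads to whole transcripts, not on reads counted over the exons themselves. For Fgfr1, the IIIb form made up 81.0% of the TPM in transcripts holding just one of the exons in replicate 1, and 9.25% in replicate 2. The counts behind this were 168 for IIIb and 41.4 for IIIc in replicate 1, and 67.3 and 842 in replicate 2. For Fgfr3, all 411 counts of replicate 1 went to IIIb transcripts, while replicate 2 had 1132 for IIIb and 1216 for IIIc, a IIIb share of 49.0%. The authors' posterior mean put Fgfr3 IIIb at 77.5% in replicate 1 and 48.7% in replicate 2, and Fgfr1 IIIb at 64.3% and 10.1%.

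For Fgfr2, just 0.948% of its TPM in replicate 1 fell on transcripts with one of the exons, from 11.6 counts for IIIb and 15.1 for IIIc. In replicate 2 the informative part was 25.0% of the TPM, from 500 and 192 counts, and the IIIb form made up 80.2% of it. The replicate 1 share of 40.0% IIIb rests on few estimated counts and was 62.1% by the posterior mean. Within transcripts that hold one of the exons, replicate 2 thus had mostly IIIb for Fgfr2 and mostly IIIc for Fgfr1, and replicate 1 had mostly IIIb for Fgfr1. Mean IIIb shares were 45.1 ± 50.8% for Fgfr1, 60.1 ± 28.4% for Fgfr2 and 74.5 ± 36.1% for Fgfr3 (SD, n = 2), with a wide spread between libraries. Within each library the share of Fgfr1 was below that of Fgfr3, at 81.0% and 100% in replicate 1 and 9.25% and 49.0% in replicate 2. The share of Fgfr2 was the lowest of the 3 in replicate 1, on few estimated counts, and the highest in replicate 2. No difference between receptors was tested.

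**Figure D2:**
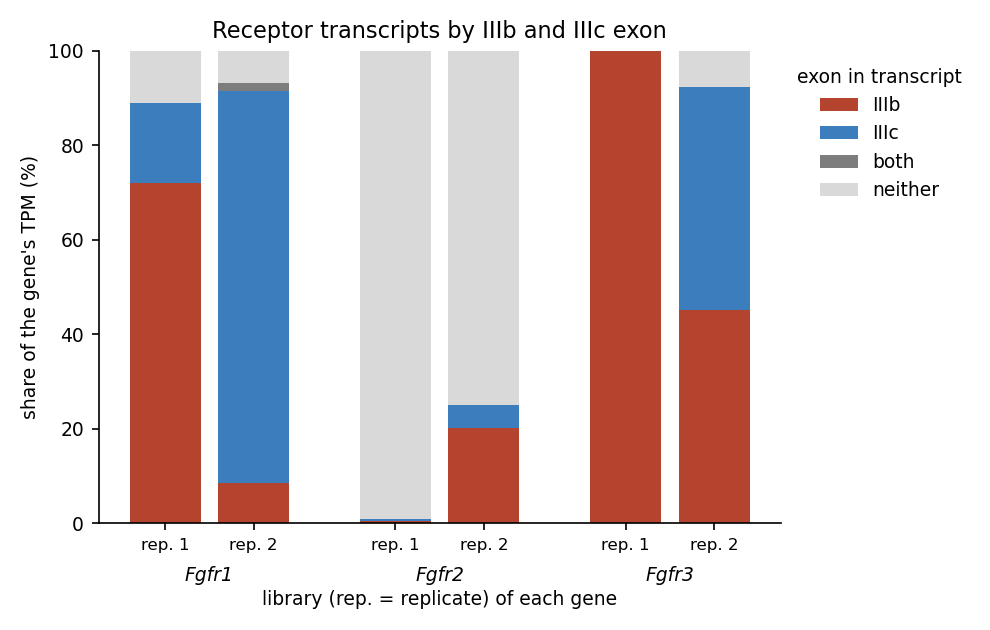
Share of the TPM of Fgfr1, Fgfr2 and Fgfr3 (percent) assigned in each library to transcripts with the IIIb exon, the IIIc exon, both or neither. Fgfr2 is mostly in transcripts with neither exon, and Fgfr1 turns from mainly IIIb in replicate 1 to mainly IIIc in replicate 2.

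Spry1 stood close to the leading ligand, Fgf1. In scaled counts none of the 3 Sprouty genes was over 2-fold apart between libraries, beside 67.5% of all genes tested that were. By TPM, Spry2 was 2.04-fold higher in replicate 1. The Sprouty sum was 128 TPM in replicate 1 and 84.3 in replicate 2, averaging 106 ± 31.2 TPM (SD, n = 2). Spry1 (chr3:37639947-37644598, plus strand), a target and inhibitor of FGF signalling, had 2150 and 2138 counts, for 84.7 and 59.1 TPM, a mean of 71.9 ± 18.1 TPM (SD, n = 2). Its scaled counts were 1.28-fold higher in replicate 1 (1.21 to 1.36). Spry2 (chr14:105891947-105896819, minus strand), which restrains branching in embryonic lung epithelium, had 850 and 587 counts, for 39.9 and 19.6 TPM, and was 1.84-fold higher in replicate 1 (1.66 to 2.05). Spry4 had 193 and 392 counts, for 3.92 and 5.64 TPM, and was 1.59-fold higher in replicate 2 (1.34 to 1.90). The order Spry1, Spry2, Spry4 held in both libraries, and the ranges of the 3 genes did not overlap. Spry1 exceeded Spry2 by 2.12-fold and 3.02-fold, and Spry4 by 21.6-fold and 10.5-fold, in replicates 1 and 2.

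Spred genes, which encode membrane-bound inhibitors of Ras signalling related to Sprouty, came to 79.3 TPM in replicate 1 and 20.3 in replicate 2. Spred1 (chr2:117121374-117182279, plus strand) had 4097 and 1177 counts, for 63.4 and 13.0 TPM, and was 4.44-fold higher in replicate 1 (4.16 to 4.74). Spred2 (chr11:19924375-20024026, plus strand) had 737 and 424 counts, for 15.5 and 6.52 TPM, and was 2.21-fold higher in replicate 1 (1.96 to 2.50). Spred1 was above Spred2 in both libraries, by 4.10-fold and 2.00-fold. Spred3 had 17 and 41 counts and remained below detection at 0.5 and 0.74 TPM.

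Which transcript of a gene led also differed between libraries. Among the 14 tested members with 2 or more annotated transcripts, the main transcript was not the same in 8: Fgf1, Fgf11, Fgf13, Fgf18, Fgfr1, Fgfr4, Fgfrl1 and Spry1. Over all such genes the share was 34.1%. For Fgf1, replicate 1 was assigned 92.7% to Fgf1-204, a transcript of 3983 bases annotated for nonsense-mediated decay, and replicate 2 97.9% to the coding Fgf1-201 of 3981 bases. By the posterior mean, the share of Fgf1-204 was 52.9% in replicate 1 and 1.17% in replicate 2, and that of Fgf1-201 was 43.7% and 93.8%. In replicate 1 the deposited credibility intervals were 6.13 to 88.9 TPM for Fgf1-204 and 1.55 to 83.5 TPM for Fgf1-201. These intervals overlap widely, so which of the 2 led in replicate 1 is uncertain. For Spry1, replicate 1 was assigned wholly to Spry1-203, and replicate 2 62.7% to Spry1-201 and 35.5% to Spry1-203, which have the same coding length of 939 bases. Fgf7 was assigned to 2 coding transcripts in both libraries, with Fgf7-202 at 83.2% in replicate 1 and 47.6% in replicate 2. Fgfrl1 was assigned wholly to Fgfrl1-202 in replicate 1 and 83.0% to Fgfrl1-201 in replicate 2. Fgf10 had 1 transcript with counts in both libraries, Fgf10-201. For Fgf12, Spry2 and Spry4 just 1 transcript each was quantified, so no difference in transcript use could be seen.

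Across the members, Fgf18 and every receptor gene but Fgfr2 were higher in replicate 2, and Fgf7, Fgf10, 2 homologous factors, Spred1 and Spred2 were higher in replicate 1. Outside Fgfr2-217, Fgfr2 too was higher in replicate 2, at 15.0 and 26.2 TPM. Ratios were taken for the 17 members whose TPM averaged 1 or more, and 11 of them lay over 2-fold apart between libraries. Of all 14139 genes tested, 67.5% did, a share the members did not exceed. Those over 2-fold higher in replicate 2 numbered 5 (Fgf18, Fgfr1, Fgfr3, Fgfr4 and Fgfrl1), beside 39.3% of all genes. Those over 2-fold lower numbered 6 (Fgf7, Fgf10, Fgf12, Fgf13, Spred1 and Spred2), beside 28.2%. The median log2 ratio of replicate 2 over replicate 1 was -0.48 over the members and 0.19 over all genes tested. With 1 library on each side these ratios have no replicate check, and the intervals cover counting error only.

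The direction of a member went with the GC content of its transcripts. The 5 members higher in replicate 2 had GC contents from 54.9% to 63.4%, and the 6 lower ones from 40.8% to 51.3%, with no overlap. The 6 within 2-fold, among them Spry1 at 56.3% and Spry2 at 46.2%, ranged from 46.2% to 56.3%. Over the 17 members the ratio and GC content had a Spearman rho of 0.90 and a Pearson r of 0.81, and over all genes tested the rho was 0.82. These are correlations across genes that share both libraries and are given as a description. After subtracting the trend of all genes on GC content, Fgfr4 was the 1 member still over 2-fold higher in replicate 2 and 10 were over 2-fold lower. Of all genes, 43.1% were over 2-fold from the trend on either side, and the share below it alone is not given. Fgfr1, Fgfr3 and Fgfrl1 then lay below the trend, by -1.36, -2.10 and -3.43 on the log2 scale, and Spry1 by -3.64. Spry1 depended on how GC content was measured: against the trend on the most AT-rich windows of the transcripts it lay at 0.01, and Spry2 and Spry4 at 1.05 and 1.03. Against that window trend Fgfr4 lay at 0.39, no longer over 2-fold higher, and Fgf18 at 2.04. A gene's GC content is the mean over all its annotated transcripts, including those without counts. For Fgf1, Fgf13 and Fgfr2 this mean was 51.9%, 51.0% and 51.6%. The transcripts with most of their counts in replicate 1, Fgf1-204, Fgf13-202 and Fgfr2-217, were at 47.2%, 40.65% and 45.5%. Distances of these genes from the trend, -1.71, -2.14 and -1.35, were taken at the higher mean. Fgf7, Fgf10 and Spred1 were within 2-fold of the trend on mean GC content, at -0.50, -0.28 and -0.47. The part of GC content in these differences was not tested.

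**Figure D3:**
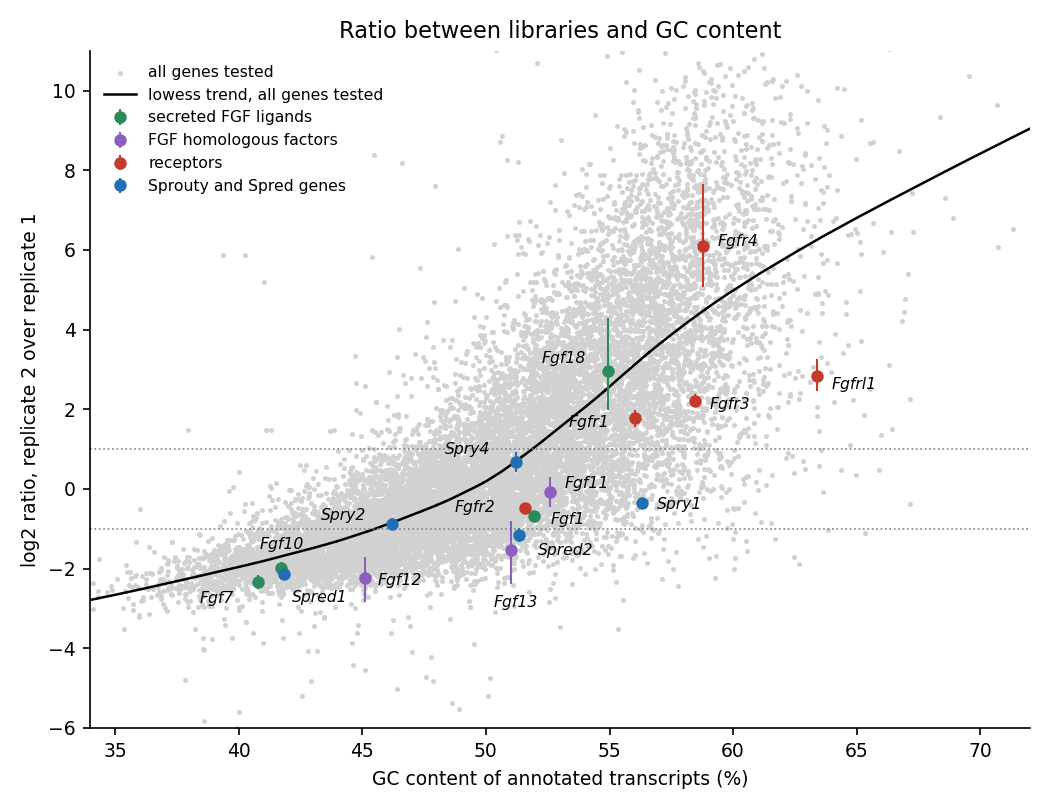
Log2 ratio of replicate 2 over replicate 1 against the GC content of annotated transcripts (percent) for genes whose TPM averaged 1 or more (grey, with 46 of 14067 beyond the axes), their lowess trend (black line) and the 17 members with exact 95% counting intervals. Dotted lines mark 2-fold. Members above the upper line lie at 54.9% GC or more, and those below the lower line at 51.3% or less.

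The surroundings of the pathway were read from 6 lists with 69 genes, of which 64 averaged a TPM of 1 or more. Over 2-fold differences were found for 37 of them, 17 higher and 20 lower in replicate 2. Of all genes tested 67.5% were that far apart, 39.3% higher and 28.2% lower, the background for the counts of each list. The median log2 ratio was 0.10. The 5 genes that reached a TPM of 1 in neither library, named after their values were seen, were Kl and Klb, the co-receptors of the endocrine FGFs, the adhesion genes Ncam1 and Flrt1, and the transcription factor gene Etv4. Kl had 0.18 and 0.13 TPM and Klb 0.3 and 0.52 TPM.

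Among co-receptors and cell surface partners, 1 of 6 tested genes was over 2-fold higher in replicate 2 and 4 were lower, with a median log2 ratio of -1.27. Cdh1, which encodes E-cadherin of epithelial junctions, had 163 and 70.2 TPM. Flrt3 and Flrt2, which encode membrane proteins that bind FGF receptors, had 44.2 and 11.5 TPM and 10.4 and 2.52 TPM. L1cam was the exception, at 0.55 and 1.55 TPM.

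All 20 genes for heparan sulfate proteoglycans and the enzymes that build or trim their chains were tested, and 8 were over 2-fold higher in replicate 2, 4 lower and 8 within, with a median log2 ratio of 0.36. The glypican gene Gpc3 stood at 114 and 109 TPM and the syndecan gene Sdc4 at 92.4 and 101 TPM, each within 2-fold. Sdc2 was 4.01-fold higher in replicate 1 in scaled counts, at 155 and 35.4 TPM, and the sulfotransferase gene Hs2st1 2.34-fold, at 96.4 and 35.6 TPM. The 8 higher in replicate 2 were Sdc1, Sdc3, Gpc1, Hspg2, Ext2, Ndst1, Ndst2 and Hs6st1. Of these, the perlecan gene Hspg2, named after its values were seen, had the widest gap, with 3 and 1772 counts and 0.11 and 33.5 TPM, and Gpc1 had 0.2 and 8.09 TPM. Each of the genes for FGF-binding proteins took another direction. Fgfbp1, which releases FGFs from the matrix, had 21.1 and 24.0 TPM, Fibp 0.84 and 35.2 TPM, and Fgfbp3 15.4 and 1.91 TPM.

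Of 14 adaptor and proximal signalling genes, 2 were over 2-fold higher in replicate 2 and 6 lower, with a median log2 ratio of -0.14. Crk, an adaptor, had 180 and 55.2 TPM, and Sos2, a Ras exchange factor, 63.2 and 14.6 TPM. The central adaptor gene Grb2 had 56.8 and 41.2 TPM on the TPM scale and was 1.70-fold higher in replicate 2 in scaled counts. Plcg1, which encodes phospholipase C gamma, and the docking protein gene Frs3 were the 2 higher ones, at 7.76 and 27.8 TPM and 0.91 and 3.3 TPM.

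In the Ras and MAP kinase cascade, 5 of 11 genes were over 2-fold higher in replicate 2 and 3 lower, with a median log2 ratio of -0.28. Mapk3, which encodes the kinase ERK1, had 11.3 and 240.1 TPM and was 59.5-fold higher in replicate 2 in scaled counts. Its GC content was 56.3%, and it lay 2.62 above the GC trend on the log2 scale.

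Transcriptional targets and feedback genes of the pathway were mostly within 2-fold in scaled counts, as the Sprouty genes were. None of 10 tested was over 2-fold higher in replicate 2, 2 were lower and 8 within, beside 39.3% and 28.2% of all genes higher and lower, with a median log2 ratio of 0.06. Dusp6, a phosphatase gene induced by FGF signalling that inactivates MAP kinases, had 142 and 46.4 TPM. In scaled counts Dusp6 was 2.77-fold higher in replicate 1. The other lower one, Etv1, named after its values were seen, had 11.2 and 2.35 TPM. Ccnd1, encoding cyclin D1, had 34.9 and 46.6 TPM, and the immediate early gene Fos had 49.6 and 29.5 TPM. The median GC content of the list was 55.5%, and all 10 tested genes were over 2-fold below the GC trend, with a median of -2.82 on the log2 scale, beside 43.1% of all genes over 2-fold from the trend on either side. The share of all genes below it alone is not given. Neither are values of this list against the trend on AT-rich windows, which moved Spry1 from -3.64 to 0.01. No difference between this list and the members was tested.

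**Figure D4:**
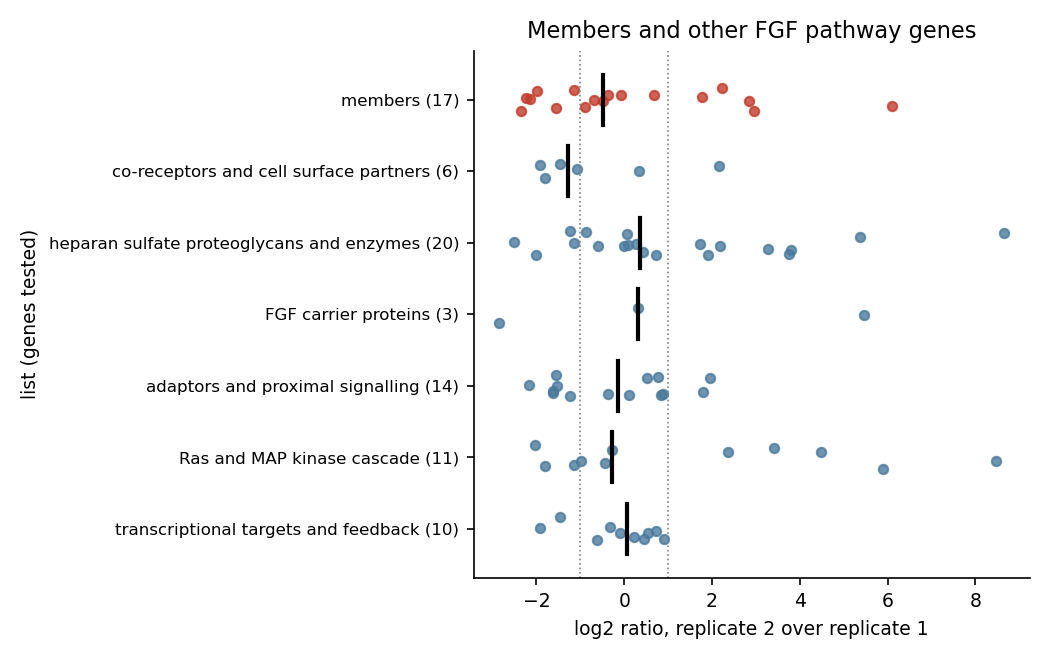
Log2 ratio of replicate 2 over replicate 1 (horizontal axis) for the 17 tested members and for each pathway list, 1 point per gene spread vertically at random, with list medians as black bars and dotted lines at 2-fold. Members range from -2.34 to 6.09, and the transcriptional targets have no point beyond the upper line.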

How the data were processed

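The authors deposited 1 gene and 1 transcript table per library, made on mm10 with GENCODE M4 per the deposited file descriptions. Neither aligner nor quantifier is named in the sources used here. The deposited expected counts estimate reads per gene, with multiply matching reads divided. The authors also deposited abundances as TPM, by a usual estimate and a posterior mean, and as FPKM. The percent of its gene held by each transcript was deposited by the authors. Numbered rows (26248) and spike-ins (97) were at 0 and left out.

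Expected counts were rounded. Libraries were scaled with TMM factors from edgeR 4.0.16 in R 4.3.3 (0.913 and 1.10), and log2 ratios of replicate 2 over replicate 1 took a prior of 0.5 counts over genes whose mean TPM reached 1. Intervals are exact Clopper-Pearson at 95%, and they and the floor of 3 counts cover counting error only, because no molecular identifiers that would mark PCR copies are named. No p-value is given. The ratios were tested on simulated data with counting error only, in which 200 genes were changed. Far more genes differed between these libraries, so that test does not cover the scaling under such wide differences. GC content is the mean over a gene's GENCODE M21 transcripts (GRCm38, the assembly of mm10), matched by identifier for 42462 of 43346 genes, and its trend is lowess with a span of 0.3. IIIb and IIIc are the mutually exclusive exons in transcription order. The exon sequences are from GENCODE M21. Spry3 is not in that annotation and is not analysed here.

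Members and lists were chosen with earlier results of these data known. Members with a mean TPM of at least 1 are described singly. Of each pathway list the 3 genes of highest mean TPM are named, with up to 2 over 2-fold apart against the list's main direction. A few items this names are not reported here because they are withheld. Alternatives were other scalings including DESeq2 1.42.0, the prior, thresholds, estimates, each library alone and a GC trend; a trend on the 10th percentile of GC content over 180-base windows was chosen after seeing the data.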

Additional observations from a re-analysis of the deposited data

How the results depend on the processing

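Of 17 members, 11 were over 2-fold apart, beside 67.5% of all genes whose TPM averaged 1 or more. Of the 10 members whose mean TPM reached 10, 6 were so, and the share of all genes at that threshold is not given. The 13 members detected in both libraries became 21 at a TPM of 0.1 and 6 at 10, and numbered 15 or 16 in a single library. The homologous factors summed to 7.73 TPM and to 15.3 TPM by the posterior mean, through Fgf13 (1.45 against 9.37 TPM). The receptors summed to 142.5 TPM and to 116.2 in FPKM, a change of unit. A single library gave sums of 82.0 to 191 TPM for secreted ligands, 4.63 to 10.8 for homologous factors, 133 to 152 for receptors and 105 to 208 for Sprouty and Spred genes. It gave IIIb shares of 9.25 to 81.0% for Fgfr1, 40.0 to 80.2% for Fgfr2 and 49.0 to 100% for Fgfr3. Scaling by total counts, DESeq2 size factors or TPM turned no member's direction except that of Fgf11 under total counts. It took Spred2 out of the members over 2-fold apart under total counts and put Spry2 in by TPM, and the posterior mean took Fgf13 out. The median log2 ratio of all genes was 0.19, 0.45 by total counts and 0.01 by TPM. Subtracting the GC trend reversed Fgfr1 to -1.36, Fgfr3 to -2.10 and Fgfrl1 to -3.43. Subtracting the window trend reversed them to -0.99, -1.09 and -4.23, left 3 members over 2-fold higher and 5 lower, beside 36.7% of all genes apart, and moved Fgfr4 to 0.39, Spry1 to 0.01, Spry2 to 1.05 and Spry4 to 1.03. The cause was not tested. The split of pathway genes, 17 higher and 20 lower, was 21 and 15 by total counts and 9 and 25 after the GC trend. Depth limits Fgfr4, Fgf18 and Fgf2, with under 10 counts in replicate 1, and the IIIb share of Fgfr2 there. No paired analysis was possible because the libraries form 1 group.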
